A study of Rattus norvegicus with 2 samples.

Results

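Dio3 was set beside 7 other imprinted genes of fetal growth, Dlk1, Igf2, Mest, Cdkn1c, Grb10, Peg3 and Gnas, in A7r5 cells, an established smooth muscle line from embryonic rat aorta. Members were taken by gene symbol: every probe set of the deposited table whose only annotated rat gene was on this list of 8 was kept. Probe sets were found for 7 of the 8 genes, 12 probe sets in all, among 10411 genes on the array. Peg3 had none. Dio3 had been picked for its higher signal in the GLUT1 pool, so that difference is a description and carries no test.

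The array data compare 2 groups. The GLUT1 group was infected for 72 hours with an adenovirus bearing the human GLUT1 cDNA, the glucose transporter that rats encode in Slc2a1, and the empty virus group with the same kind of vector without a cDNA. Both were infected at a multiplicity of 10, where 1 stood for 100 particles per cell, and both grew in 5.5 mM glucose. Each group is a pool of RNA isolated on 3 days and read on 1 array, so no value below has a replicate, and no error over samples or p-value can be given. The line is a single established line, and both groups carry adenovirus, so no uninfected cells stand behind the comparison.

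Imprinted genes are read from only the maternal or only the paternal chromosome, and many of them set fetal and placental growth. In the mouse, Dlk1, Dio3, Igf2, Mest and Peg3 are read mainly from the paternal chromosome and restrain or drive growth, while Cdkn1c and Grb10 are read mainly from the maternal one in most tissues and hold growth back. Dio3 encodes type 3 deiodinase, a selenium-containing enzyme that inactivates thyroid hormone and is abundant in fetal tissue and placenta. Dio3 and Dlk1 lie at opposite ends of the same imprinted cluster.

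The promoter of Dio3 is shown because Dio3 is the member the comparison turns on. The 250 bases before its start, credited to RefSeq on GRCr8, lie at chr6:135106822-135107071 on the plus strand, with each CpG, the dinucleotide at which imprinting marks are placed, in capitals.
Dio3: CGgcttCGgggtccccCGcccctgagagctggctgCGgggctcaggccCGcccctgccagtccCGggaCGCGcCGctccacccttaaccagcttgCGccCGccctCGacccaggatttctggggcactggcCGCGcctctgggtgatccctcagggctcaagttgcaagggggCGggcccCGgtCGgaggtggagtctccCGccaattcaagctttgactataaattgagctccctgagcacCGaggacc
The window held 19 CpG, more than 81.6% of 33469 rat promoter windows of this length, whose median was 5. The letters TATAAA were found once on either strand, beginning 31 bases before the start, and 12.9% of all windows held them. The GC box letters GGGCGG, which themselves contain a CpG, were found 4 times on either strand, against a share of 30.5% of all windows with at least 1 match. CCAAT was found once on either strand, and 34.0% of windows held it. No matches of these 3 motifs overlapped. Windows were listed for 7 of the 8 genes, and the Dlk1 window held 41 CpG, 2 GGGCGG and neither of the other motifs. The arrays do not measure methylation, and these matches describe letters only.

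The arrays were alike in overall signal. The deposited table gives a linear intensity in arbitrary units for 15923 probe sets, with a median of 508 on both arrays. Values under 175, the 25th percentile over the pair of arrays, were raised to it as a floor. A gene was called measured if its mean log2 value was at least the probe set median, which corresponds to an intensity of 507. This left 6114 measured genes. Their log2 ratios had an SD of 0.14 and 5th and 95th percentiles of -0.21 and 0.23. The rat Slc2a1 probe set read 3121 in the GLUT1 pool and 2902 in the empty virus pool, a log2 ratio of 0.11. The sources used here do not say whether it can bind the human cDNA, so it does not check the labels. Of the smooth muscle markers 9 of 11 on the array were measured, among them Acta2, the smooth muscle actin, at 16687 in the GLUT1 pool and 16303 in the empty virus pool. Myh11, the smooth muscle myosin heavy chain, was not measured, at 228 in the GLUT1 pool and 227 in the empty virus pool. The smooth muscle genes farthest from 0 were Actg2 at a log2 ratio of -0.21, Smtn at 0.19 and Cald1 at -0.13.

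Most markers of other cell types were dim, and their part in the results below was not tested. The endothelial list had 1 measured gene of 6, Esam, with -0.28 on the log2 scale, and the list's summed intensity was 881 in the GLUT1 pool and 1080 in the empty virus pool. Of 9 leukocyte genes 2 were measured, with sums of 3977 in the GLUT1 pool and 4364 in the empty virus pool. C1qb, a complement subunit, read 1014 in the GLUT1 pool and 1352 in the empty virus pool, a log2 ratio of -0.41. Cd14 had a log2 ratio of 0.18. C1qb and Esam were at least 1.2-fold lower, as were 2.73% of all measured genes. Ptprc, the leukocyte antigen CD45, and the endothelial Pecam1 lay below the floor on both arrays. The epithelial and adipocyte list had 1 measured gene of 7, the keratin Krt8, bright at 6500 in the GLUT1 pool and 6193 in the empty virus pool, and the sums were 7160 in the GLUT1 pool and 6593 in the empty virus pool. Of 10 skeletal muscle genes 2 were measured, Acta1 at -0.06 and Mef2c at 0.04, with sums of 4682 in the GLUT1 pool and 4540 in the empty virus pool. Of 6 neuroendocrine genes 1 was measured, Syp at -0.21, with sums of 1274 in the GLUT1 pool and 1383 in the empty virus pool.

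Only Dio3 and Gnas of the 7 imprinted genes with probe sets were measured. Dlk1, Mest, Cdkn1c and Grb10 lay at or below the floor on both arrays, and Igf2 lay between the floor and the brightness filter. The label of imprinted fetal genes therefore holds for this line by gene identity, while 4 of 7 members, or 57.1%, gave no signal above the floor in either pool, against 16.3% of all 10411 genes. Of all genes 58.7% were measured, and of the members 28.6%. An intensity depends on the probes as well as on the transcript, so the members are not ranked against each other by level, and a dim probe set does not show that a gene is silent. Detection calls were not used here.

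**Figure D1:**
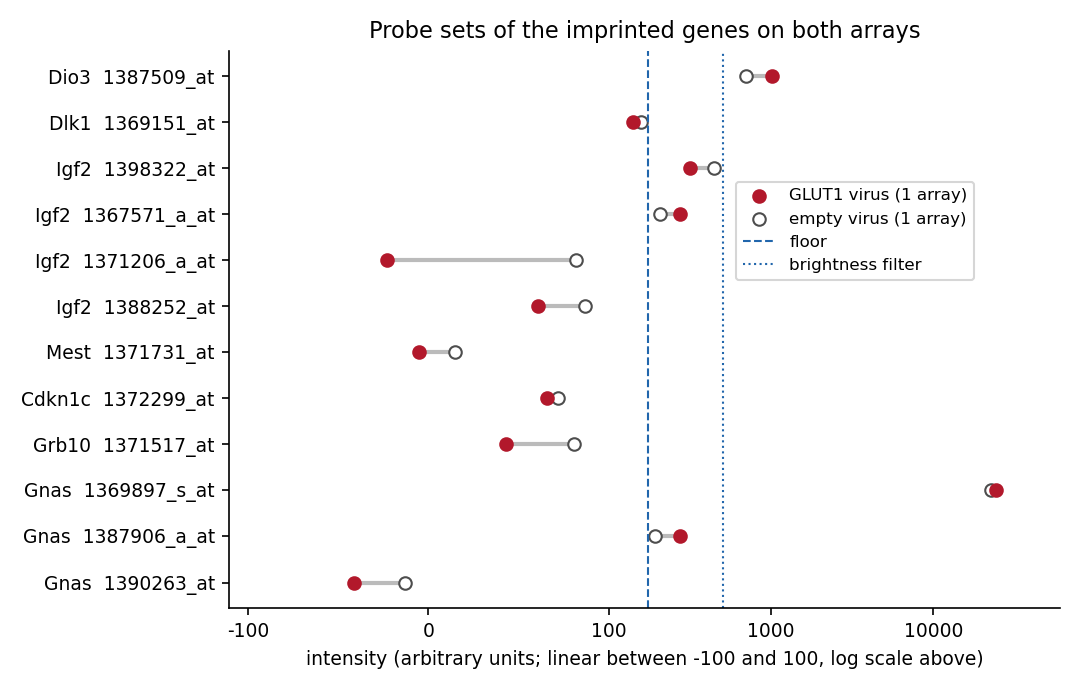
Intensity of each of the 12 probe sets on the GLUT1 array (filled) and the empty virus array (open), in arbitrary units on an axis that is linear between -100 and 100 and logarithmic above. Dio3 and the _s_at probe set of Gnas are the probe sets to the right of the brightness filter on both arrays, and 7 of the 12 lie left of the floor on both.

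Dio3 was brighter in the GLUT1 pool. Its only probe set, 1387509_at, read 1008 in the GLUT1 pool and 696 in the empty virus pool, a difference of 312 units, a 1.45-fold ratio and a log2 ratio of 0.54. The probe set was brighter than 65.5% of all probe sets on the GLUT1 array and brighter than 57.1% on the empty virus array. A pool has no count of cells behind it, so more cells with Dio3 mRNA and more of it per cell cannot be told apart.

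Dio3 lay past 1.2-fold and short of 2-fold. Among measured genes, 0.0164% were at least 2-fold higher in the GLUT1 pool, a single gene, and 3.68% were at least 1.2-fold higher. The log2 ratio of Dio3 ranked 6 among 6114, behind 5 genes. Because Dio3 was picked from that end of the ranking, its rank is not evidence of a difference.

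The ratio of a dim probe set scatters more than that of a bright one, so Dio3 was also set beside the 500 probe sets nearest to it in brightness, itself included. Their geometric mean intensities ran from 784 to 898. Their log2 ratios had a median of 0.00 and 5th and 95th percentiles of -0.25 and 0.31. The scaled median absolute deviation of these ratios, called the local spread here, was 0.17, and Dio3 lay at 3.18 times that value. No other probe set in this window had a higher log2 ratio, the next being at 0.48, while the farthest in the other direction was at -0.56. Dio3 was picked for its higher signal in the GLUT1 pool, so its place in this window is not evidence of a difference either. The local spread joins array noise with real differences, and with 1 probe set for Dio3 there is no second reading of the gene.

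**Figure D2:**
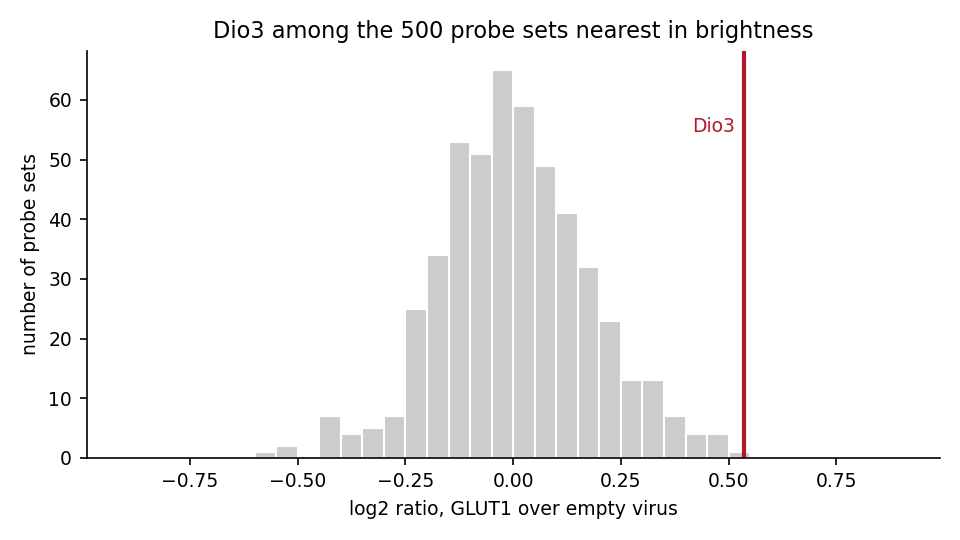
Number of probe sets by log2 ratio, GLUT1 over empty virus, for the 500 probe sets nearest to Dio3 in brightness, with Dio3 as a vertical line. Dio3, at 0.54, stands at the upper end of a distribution whose next highest value is 0.48. It was picked for its higher signal, so this place is not evidence of a difference.

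Gnas encodes the stimulatory G protein alpha subunit, which couples hormone receptors to cAMP production, and also other transcripts from an imprinted locus. Its brightest probe set, 1369897_s_at, read 24456 in the GLUT1 pool and 22758 in the empty virus pool, which is 0.10 on the log2 scale and 1.43 times its local spread. It was brighter than 99.6% of probe sets on the GLUT1 array and brighter than 99.5% on the empty virus array, and 30 of the 500 probe sets of like brightness had a higher ratio. A second probe set, 1387906_a_at, read 275 in the GLUT1 pool and 194 in the empty virus pool, which is 0.50 on the log2 scale and 1.57 times the wider local spread of 0.32 at that brightness. The third, 1390263_at, read -41 in the GLUT1 pool and -13 in the empty virus pool, below the floor on both arrays. Both Gnas probe sets above the floor thus had higher values in the GLUT1 pool, but 1387906_a_at lay below the brightness filter. Of the 500 probe sets nearest to 1387906_a_at in brightness, 30 also had a higher ratio. The sources used here do not give the transcripts of the locus that each Gnas probe set reads.

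Igf2 encodes the fetal insulin-like growth factor, and its 4 probe sets did not point the same way. Probe set 1398322_at read 318 in the GLUT1 pool and 446 in the empty virus pool, a log2 ratio of -0.49, or -1.86 in units of the local spread. Probe set 1367571_a_at read 274 in the GLUT1 pool and 207 in the empty virus pool, a log2 ratio of 0.41. The signs of the 2 probe sets above the floor were therefore opposite. The other 2 lay below the floor on both arrays: 1388252_at read 61 in the GLUT1 pool and 87 in the empty virus pool, and 1371206_a_at read -23 in the GLUT1 pool and 82 in the empty virus pool. Farther out in the same direction than the brightest Igf2 probe set were 19 of the 500 probe sets of like brightness. No direction can be given for Igf2 from these probe sets.

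The remaining members with a probe set read below the floor on both arrays. Dlk1, a membrane protein of fetal and progenitor cells related to the Notch ligands, read 141 in the GLUT1 pool and 159 in the empty virus pool. Cdkn1c, an inhibitor of cyclin-dependent kinases that lets fetal cells leave the cycle, read 66 in the GLUT1 pool and 72 in the empty virus pool. Grb10, an adaptor that dampens insulin and IGF receptor signalling, read 43 in the GLUT1 pool and 81 in the empty virus pool. Mest, a predicted hydrolase of mesoderm, read -5 in the GLUT1 pool and 15 in the empty virus pool. All 4 had the lower reading in the GLUT1 pool, but each pair lies below the floor, where no ratio is given.

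Genes beside the members were read in the order of the rat gene table, 5 named genes on each side. Around Dio3, 5 of 10 neighbours had a probe set. Meg3, the noncoding RNA of the same cluster that is read from the maternal chromosome in the mouse, read 303 in the GLUT1 pool and 313 in the empty virus pool, a log2 ratio of -0.05, and its second probe set read -4 in the GLUT1 pool and 84 in the empty virus pool. Begain read 380 in the GLUT1 pool and 365 in the empty virus pool, a log2 ratio of 0.06. Downstream of Dio3, Ppp2r5c, a regulatory subunit of protein phosphatase 2A, read 5440 in the GLUT1 pool and 5599 in the empty virus pool, a log2 ratio of -0.04, and Dync1h1, the dynein heavy chain, read 6737 in the GLUT1 pool and 6361 in the empty virus pool, a log2 ratio of 0.08. Meg3 and Begain lay below the brightness filter, so only Ppp2r5c and Dync1h1 were measured. None of the 4 with a ratio was past 1.2-fold, against 3.68% higher and 2.73% lower among all measured genes. Dlk1, the other neighbour, has no ratio. On the far side of Dlk1, Wars1 had a log2 ratio of 0.02 and Slc25a29, below the brightness filter, of 0.09.

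The neighbours of Igf2 were mostly dim. H19, the noncoding RNA that shares its imprinting control with Igf2, read 223 in the GLUT1 pool and 132 in the empty virus pool, above the floor only on the GLUT1 array. Ins2 read 204 in the GLUT1 pool and 306 in the empty virus pool, and Ascl2 read 248 in the GLUT1 pool and 332 in the empty virus pool. Th and Tnnt3 lay below the floor on both arrays. Lsp1 had a log2 ratio of -0.29 and Cd81 of -0.02, both below the brightness filter. Mrpl23, a mitochondrial ribosomal protein and the only measured one of the 8 on the array, read 2746 in the GLUT1 pool and 2840 in the empty virus pool, a log2 ratio of -0.05. Although Peg3 has no probe set, Apeg3, its antisense gene, chosen after its value was seen, read 265 in the GLUT1 pool and 227 in the empty virus pool, below the brightness filter.

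Other genes known to be imprinted in the mouse, several of them only in placenta or brain, gave the wider setting. Of 30 on the array 12 were measured, with a median log2 ratio of -0.14, beside 0.01 over all 6114 measured genes. Of the 12, 3 lay above 0 and 9 below, beside 52.1% of all measured genes above 0. None passed 1.2-fold at its brightest probe set in either direction, against 3.68% higher and 2.73% lower among all measured genes. The count of 0 rests on Impact, whose deposited readings are exactly 1.2-fold apart and fall just short of the threshold after the centring of the arrays. All 5 measured genes of the paternally expressed list lay below 0: Impact, an inhibitor of the kinase GCN2, read 985 in the GLUT1 pool and 1182 in the empty virus pool, a log2 ratio of -0.26, and Rasgrf1, a Ras exchange factor, read 1098 in the GLUT1 pool and 1307 in the empty virus pool, a log2 ratio of -0.25. Plagl1, a zinc finger factor of fetal growth, had a log2 ratio of -0.14. The other probe sets of Impact, which were dimmer, had log2 ratios of -0.22 and -0.09. In the maternally expressed list 3 of 7 measured genes lay above 0 and 4 below. Gatm, the first enzyme of creatine synthesis, had a log2 ratio of -0.24, Nap1l4, a histone chaperone, of 0.23 and Dhcr7, the last enzyme of cholesterol synthesis, of -0.15. Igf2r, the receptor that clears IGF2, read 2045 in the GLUT1 pool and 2268 in the empty virus pool, a log2 ratio of -0.15, and its second probe set had -0.01. Tssc4, a gene of the Cdkn1c cluster, had a log2 ratio of 0.07 at the brightest of its 3 probe sets and 0.19 at the next. Its dimmest, 463 in the GLUT1 pool and 308 in the empty virus pool, lay below the brightness filter at a log2 ratio of 0.59, above that of Dio3. By brightest probe sets, Dio3 was the only measured member past 1.2-fold, and it had been picked for that difference.

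**Figure D3:**
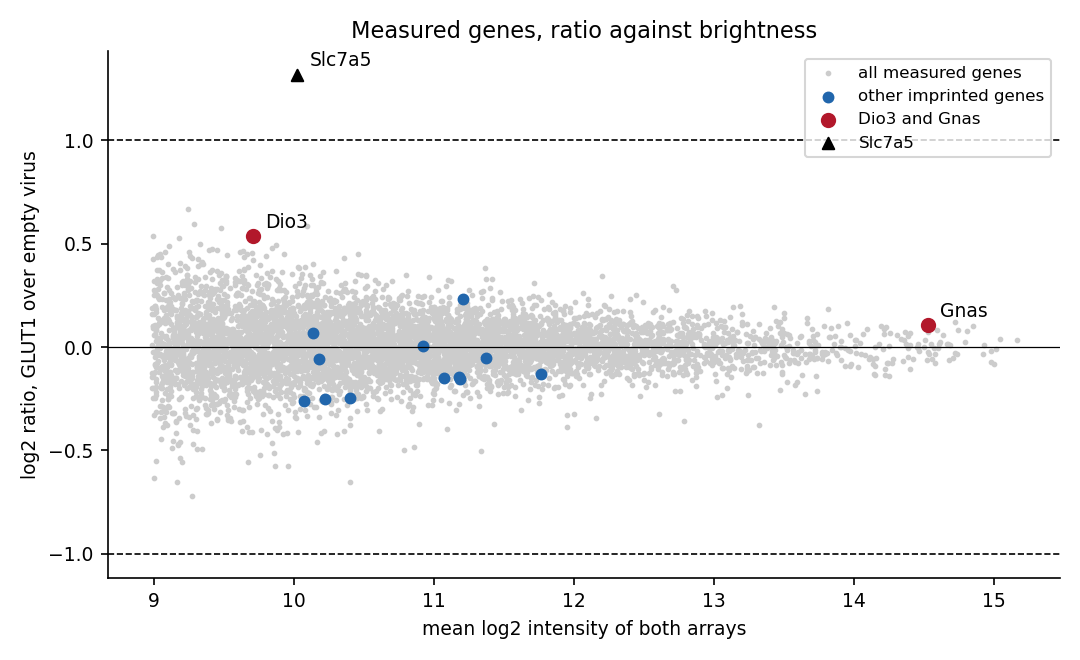
Log2 ratio, GLUT1 over empty virus, against mean log2 intensity for all measured genes (grey), other imprinted genes (blue), Dio3 and Gnas (red) and Slc7a5 (triangle), with dashed lines at 2-fold. Dio3 lies at 0.54 and Gnas at 0.10, while the 12 other imprinted genes lie between -0.26 and 0.23.

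Dio3 acts on thyroid hormone, so the genes that carry, convert and sense the hormone were read next. The other deiodinases were below the floor on both arrays: Dio1 read 101 in the GLUT1 pool and 98 in the empty virus pool, and Dio2, which activates the hormone, read -94 in the GLUT1 pool and 7 in the empty virus pool. Of 11 transporter and binding genes, deiodinases included, 3 were measured. Slc7a5, the LAT1 light chain, which carries thyroid hormone as well as large neutral amino acids, read 1643 in the GLUT1 pool and 660 in the empty virus pool, and is the single measured gene past 2-fold. Its heavy chain partner Slc3a2 had a log2 ratio of 0.09 and the organic anion carrier Slco1a4 of 0.07.

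The receptors of the hormone were read by 2 probe sets each. Thra, the alpha receptor, read 784 in the GLUT1 pool and 790 in the empty virus pool, a log2 ratio of -0.01, while its dimmer probe set read 469 in the GLUT1 pool and 379 in the empty virus pool, a log2 ratio of 0.31. Thrb, the beta receptor, read 205 in the GLUT1 pool and 203 in the empty virus pool, below the brightness filter. The other Thrb probe set read 169 in the GLUT1 pool and 199 in the empty virus pool, above the floor only on the empty virus array. Rxra, which pairs with both receptors on DNA, read 341 in the GLUT1 pool and 163 in the empty virus pool, above the floor only on the GLUT1 array and not measured. The median of the 9 measured receptor and cofactor genes was -0.01, with 4 above and 5 below 0. Its measured genes farthest from 0 were the coactivator Ncoa3 at -0.15, the Mediator subunit Med24 at 0.11 and the coactivator Ncoa1 at 0.08.

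At their brightest probe sets all 7 measured thyroid hormone response genes lay above 0, with a median log2 ratio of 0.09, and 52.1% of all measured genes lay above 0. Gpd2, the mitochondrial glycerol-3-phosphate dehydrogenase, read 825 in the GLUT1 pool and 597 in the empty virus pool, a log2 ratio of 0.47, and a second, dimmer probe set gave 0.48. Klf9, a transcription factor induced directly by the hormone, had a log2 ratio of 0.18, with a dimmer probe set at 0.02, and the uncoupling protein Ucp3 had 0.16. Atp2a2, the calcium pump of the sarcoplasmic reticulum, had 0.04, and its second measured probe set lay below 0, at 776 in the GLUT1 pool and 847 in the empty virus pool, a log2 ratio of -0.13. Gpd2 was the only 1 of the 7 past 1.2-fold, against 3.68% higher and 2.73% lower among all measured genes. These genes also answer to other signals, and hormone in the medium was not measured here.

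Type 3 deiodinase is a selenoprotein, and its synthesis needs the machinery that inserts selenocysteine. All 7 synthesis genes on the array were measured, with a median log2 ratio of -0.04 and a range of -0.12 to 0.12, and none passed 1.2-fold. Among all measured genes 52.1% lay above 0, 3.68% were at least 1.2-fold higher and 2.73% at least 1.2-fold lower. The farthest from 0 were Scly, which releases selenium from selenocysteine, at 0.12, and the selenophosphate synthetases Sephs2 at -0.12 and Sephs1 at 0.10. Among 15 measured selenoproteins the median was 0.04, with 10 above and 5 below 0. Txnrd3, a thioredoxin reductase, read 1041 in the GLUT1 pool and 767 in the empty virus pool, which is 0.44 on the log2 scale and 2.56 times its local spread, and was the only one past 1.2-fold. Selenow followed at 0.17 and Selenoh at 0.14. Hedgehog signalling is known to induce Dio3 through Gli2 in keratinocytes. Of 7 genes of this pathway on the array 2 were measured. Gli2 read 642 in the GLUT1 pool and 569 in the empty virus pool. Smo, the signal transducer, read 1427 in the GLUT1 pool and 1263 in the empty virus pool. Each had a log2 ratio of 0.18, within the 5th to 95th percentiles of all measured genes, -0.21 to 0.23. A second, dimmer Smo probe set had 0.25. Shh, Hhip, Boc and Gas1 lay below the floor on both arrays, and Cdon below the brightness filter. A link of these values to Dio3 was not tested.

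The genes that act with the other members were read in the same way. Of all measured genes, 52.1% lay above 0, 3.68% were at least 1.2-fold higher and 2.73% at least 1.2-fold lower. Among 9 measured IGF and insulin receptor genes, partners of Igf2 and Grb10, 2 lay above and 7 below 0, with a median log2 ratio of -0.08. Igfbp6, a binding protein that prefers IGF2, read 3957 in the GLUT1 pool and 3312 in the empty virus pool, a log2 ratio of 0.26, with 0.19 from its second probe set. Igf1r, the receptor through which IGF2 signals, and Igfbp4 both had log2 ratios of -0.14. The relatives and targets of Cdkn1c, the inhibitors, cyclins and kinases of G1, had a median of 0.12 over 9 measured genes, with 8 above and 1 below 0. Cdkn2a, a cell cycle inhibitor, read 634 in the GLUT1 pool and 461 in the empty virus pool, a log2 ratio of 0.46, and was past 1.2-fold. Ccnd1, the gene below 0, had -0.12 at its brightest probe set and -0.11 at another, while its remaining probe set, measured at 1995 in the GLUT1 pool and 1584 in the empty virus pool, had 0.33, also past 1.2-fold. Ccnd2 followed at 0.22 and Cdkn1a at 0.18, with a dimmer Cdkn1a probe set at -0.01.

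In the Notch pathway, to which Dlk1 is related, 6 genes were measured, with 3 above and 3 below 0 and a median log2 ratio of -0.04. The ligand Jag1 read 688 in the GLUT1 pool and 573 in the empty virus pool, a log2 ratio of 0.26 that is past 1.2-fold. Past that size lay 3.68% of all measured genes on the higher side and 2.73% on the lower. Hes5 had -0.20, with a dimmer probe set at 0.22, and Rbpj, the DNA-binding partner of Notch, -0.16. Among G protein and cAMP genes, which act with the product of Gnas, 9 of 16 measured lay above 0 and 7 below, with a median of 0.01 and none past 1.2-fold at its brightest probe set. The measured probe sets of Gnb1, a G protein beta subunit, did not point the same way, at -0.01, -0.21 and 0.30, the last past 1.2-fold at 1557 in the GLUT1 pool and 1262 in the empty virus pool. The catalytic subunits of protein kinase A stood on both sides, with Prkaca at 0.16 and Prkacb at -0.19, and the G protein subunit Gng10 had -0.15.

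**Figure D4:**
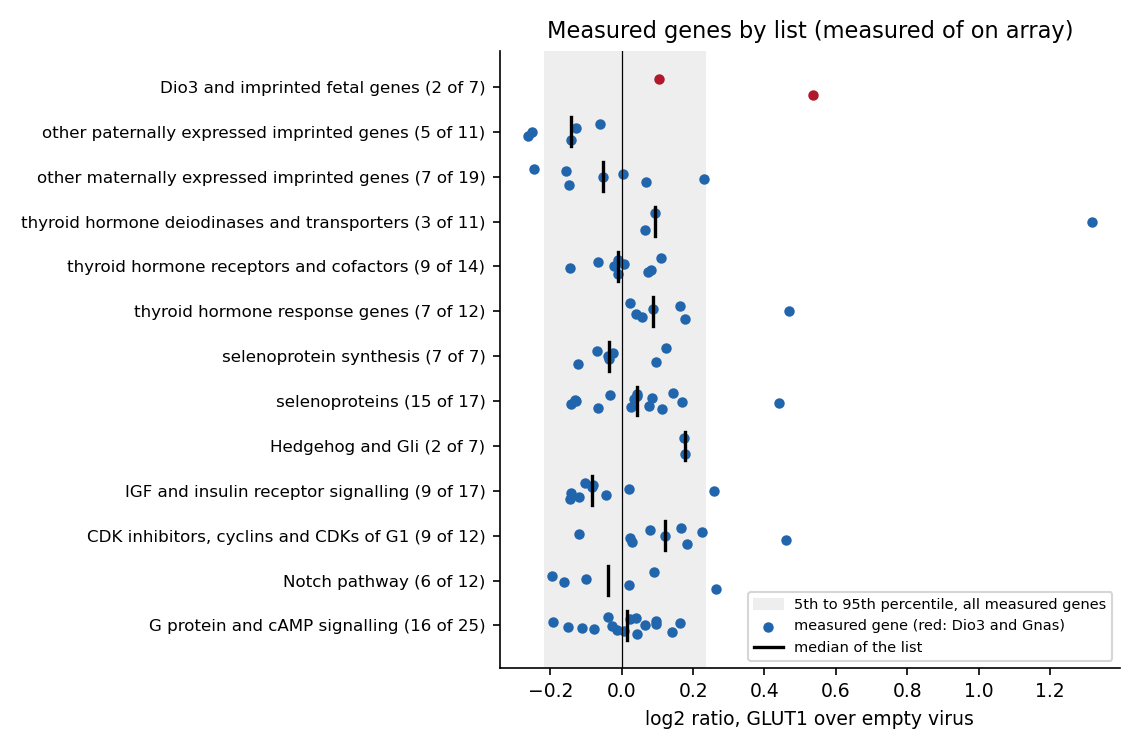
Log2 ratio, GLUT1 over empty virus, of the measured genes of each list, with the list's median as a bar and the 5th to 95th percentile of all measured genes (-0.21 to 0.23) shaded. The gene at the right edge is Slc7a5, followed by Dio3 at 0.54, Gpd2 at 0.47, Cdkn2a at 0.46 and Txnrd3 at 0.44.

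The genes whose values on both arrays were nearest to those of Dio3 were found by Euclidean distance between log2 intensities over the 2 arrays. They were Mettl3, a catalytic subunit of the RNA N6-adenosine methyltransferase, at a distance of 0.057, Creb3l1, a membrane-bound transcription factor, at 0.081, Dact3, an inhibitor of Wnt signalling, at 0.082, Phldb1 at 0.11 and Mrpl14, a mitochondrial ribosomal protein, at 0.12. Mettl3 read 977 in the GLUT1 pool and 713 in the empty virus pool. Dact3 has 3 probe sets, and only its brightest was used here. Likeness over 2 arrays rests on a level and a ratio alone.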

How the data were processed

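The deposited table holds 1 linear intensity per probe set and array, all whole numbers. Both columns have quartiles of 175 and 1507.5, and what the authors did to the values before deposit is unknown. The sources used here give no software, background correction or normalization method. Gene symbols came from the platform annotation and were updated by gene ID in the GRCr8 gene table. For the gene values, control probe sets and those of several genes or none were left out, and each gene was represented by its brightest probe set. The centring, floor, brightness filter, local spread and windows of like brightness were computed with those probe sets still included.

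The GLUT1 array was centred on the median log2 ratio of bright probe sets, -0.00095, before the floor at the 25th percentile and log2. The local spread used the 500 nearest probe sets above the floor on both arrays. No result on simulated data is given here in support of the steps. No significance test was made, because each group has 1 pooled sample, and the number of arrays limits the precision. All members were named, with Slc2a1, the 5 genes nearest to Dio3, the neighbours of Dio3, Dlk1 and Igf2, the deiodinases and thyroid hormone receptors, and the 3 measured genes of each other list farthest from 0. Others named are examples chosen after their values were seen. The members and lists were chosen with earlier results of these data known. A comparison of deiodinase proteins was planned and not run. Python 3.11.15, numpy 2.4.6, pandas 2.3.3 and matplotlib 3.10.9 were used.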

Additional observations from a re-analysis of the deposited data

How the results depend on the processing

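No paired analysis was possible because there is 1 array in each group. Dio3 had a log2 ratio of 0.53 to 0.54 under all 6 alternatives in which it passed the filter. Its single probe set lies above the floors and the deposited columns already had the same quartiles, so this says little about stability. Averaging all probe sets gave 0.20 for Gnas and -0.020 for Igf2, where probe sets at the floor on both arrays enter as 0. With no filter, 2 members passed 1.2-fold, Dio3 higher and Igf2 lower, against 1 as reported, and 1265 and 9 of all genes passed 1.2-fold and 2-fold, against 392 and 1. With no filter the median of the 7 members and that of the 30 other imprinted genes were both 0, a value set by genes at the floor. A filter at the 75th percentile leaves Dio3 out for its brightness, so that 0 members passed 1.2-fold and the members' median was that of Gnas, 0.10, and it gave 53 genes past 1.2-fold and 0 past 2-fold. A threshold of 1.5-fold gave 0 members and 8 of all genes. A floor at the 40th percentile gave 2 genes past 2-fold. With 1 array per group, none of these settings replaces a replicate.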
